A study of Mus musculus with 3 samples.

Results

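The 6 genes described here, Cybb, Cyba, Ncf1, Ncf4, Rac2 and Hvcn1, encode parts of the superoxide-producing NADPH oxidase of phagocytes and a channel that serves it. They were chosen by gene symbol, by a rule that uses no expression value although earlier results of these data were known, and make up 6 of the 31053 genes in the count tables; they are not every subunit of the complex. Each symbol matched 1 row. The tables come from 3 droplet (10x 3′) libraries of single blood cells from C57BL/6J mice, 1 library per group, all labelled 12 h. The Sham library carries no further treatment in its label. CLP is taken to mean caecal ligation and puncture, a model of abdominal sepsis. The CLP library came from mice treated with CMC, read as the vehicle carboxymethylcellulose, and the HDCA+CLP library came from mice labelled as given HDCA, read as hyodeoxycholic acid, and the same procedure. The labels do not spell out these abbreviations, and CMC is named for CLP alone, so CLP and CMC cannot be told apart in a comparison with Sham. How many mice were pooled into a library is unknown here. With 1 library per group there is no test between groups: every interval below is a 95% interval for counting error alone, and no p-value is given.

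The oxidase moves electrons from cytosolic NADPH across a membrane onto oxygen, which yields superoxide in the phagosome or outside the cell. In a resting neutrophil a membrane core waits apart from a set of cytosolic proteins, and activation brings them together with a Rac GTPase. The electrons carry negative charge across the membrane, and a voltage-gated channel lets protons follow. Neutrophils are the cells best known for this burst of oxidant, which helps kill ingested bacteria and fungi. Monocytes and B lymphocytes also carry the complex, and loss of the core or of an organising subunit causes chronic granulomatous disease.

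The bases just before the start sites of 3 of the members show what lies next to the transcripts counted below. They are the 250 bases before the annotated start in the RefSeq promoter table for GRCm38.p6, read 5′ to 3′ on the gene's strand, which is the minus strand for each. Capitals mark matches, on either strand, to CCAAT or GGGCGG; a search for GAGGAA found no match in them.
Cybb: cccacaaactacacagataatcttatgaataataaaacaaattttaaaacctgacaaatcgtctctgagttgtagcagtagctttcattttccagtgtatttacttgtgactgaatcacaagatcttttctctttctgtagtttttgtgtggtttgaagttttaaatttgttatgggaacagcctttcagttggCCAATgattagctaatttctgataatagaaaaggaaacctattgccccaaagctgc
Cyba: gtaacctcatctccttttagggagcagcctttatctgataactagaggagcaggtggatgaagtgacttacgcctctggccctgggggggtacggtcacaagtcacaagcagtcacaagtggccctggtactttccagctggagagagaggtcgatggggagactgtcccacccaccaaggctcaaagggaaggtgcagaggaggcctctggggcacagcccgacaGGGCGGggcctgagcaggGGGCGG
Ncf1: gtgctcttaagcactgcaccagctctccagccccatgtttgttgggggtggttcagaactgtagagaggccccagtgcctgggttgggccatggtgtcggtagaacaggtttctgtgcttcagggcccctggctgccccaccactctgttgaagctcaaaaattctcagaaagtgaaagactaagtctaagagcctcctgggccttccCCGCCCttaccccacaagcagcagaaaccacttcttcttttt
The Cybb window, chrX:9469325-9469574, is 34% G and C and holds 1 CCAAT, which begins 56 bases before the start. The Cyba window, chr8:122432941-122433190, is 60% G and C and holds 2 GGGCGG matches, beginning 24 and 6 bases before the start. The Ncf1 window, chr5:134229626-134229875, is 54.4% G and C and holds 1 GGGCGG on the other strand, 42 bases before the start. No annotated exon of its own gene lies in any of the 3 windows. Among 32851 promoter windows of the same length, 33.8% held CCAAT, 32.7% held GGGCGG and 23.3% held GAGGAA on either strand. A match is a run of letters and not a measured binding site. Ncf4, Rac2 and Hvcn1 are named without a sequence.

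Cells were sorted into classes by transcripts that do not include the 6 members. Neutrophils were cells with at least 5% of their UMIs (unique molecular identifiers, each counted as 1 captured transcript) from S100a8 and S100a9, and they were divided by the share of UMIs from the granule genes Camp, Ltf and Ngp: at least 5% (granule-high), 1 to 5% (granule-intermediate) and under 1% (granule-low). Those granule transcripts are made in the marrow while a neutrophil matures, so the tiers order the cells by how much of them remains. The labels call the cells mononuclear, yet neutrophils were 3.58% of the 6891 kept Sham cells, 48.8% of 10840 CLP cells and 77.7% of 12023 HDCA+CLP cells, and each of the 10 neutrophil markers was detected in each library. Monocytes numbered 293, 744 and 287 cells in Sham, CLP and HDCA+CLP, B cells 2728, 281 and 276, and T cells 3029, 2746 and 1218. Sham held 11 granule-high, 8 granule-intermediate and 228 granule-low neutrophils, whereas CLP held 1791, 2952 and 549 and HDCA+CLP 3121, 4588 and 1632. A class with under 20 cells in a library enters no ratio between libraries. Depth was 42427093, 87031721 and 95178381 UMIs per library, with medians of 5350, 6932 and 7469 per kept cell. Between 17 and 34 cell barcodes were shared by a pair of libraries, at most 0.363% of either.

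Cybb encodes gp91phox (Nox2), the membrane subunit that carries the electrons, and its transcript was concentrated in granule-rich neutrophils and monocytes. In granule-high neutrophils its level was 1762 CPM in Sham, 911 CPM in CLP and 863 CPM in HDCA+CLP, where CPM is the gene's UMIs scaled to a class total of 1000000. Monocytes held 1237, 823 and 997 CPM. Granule-low neutrophils held 105, 274 and 211 CPM, and B cells 117, 192 and 164 CPM. The granule-high tier stood above monocytes in Sham and CLP and below them in HDCA+CLP, with no overlap of the intervals. When UMIs of the S100 and granule genes, which fill much of a neutrophil's library, were taken out of the total, the granule-high level was above that of monocytes in all 3 libraries (3333 against 1239, 1696 against 829 and 1571 against 1007 CPM). B cells and granule-low neutrophils did not differ beyond their intervals in Sham. T cells, which served as the class that shows free RNA, held 1.47, 7.06 and 6.33 CPM.

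**Figure D1:**
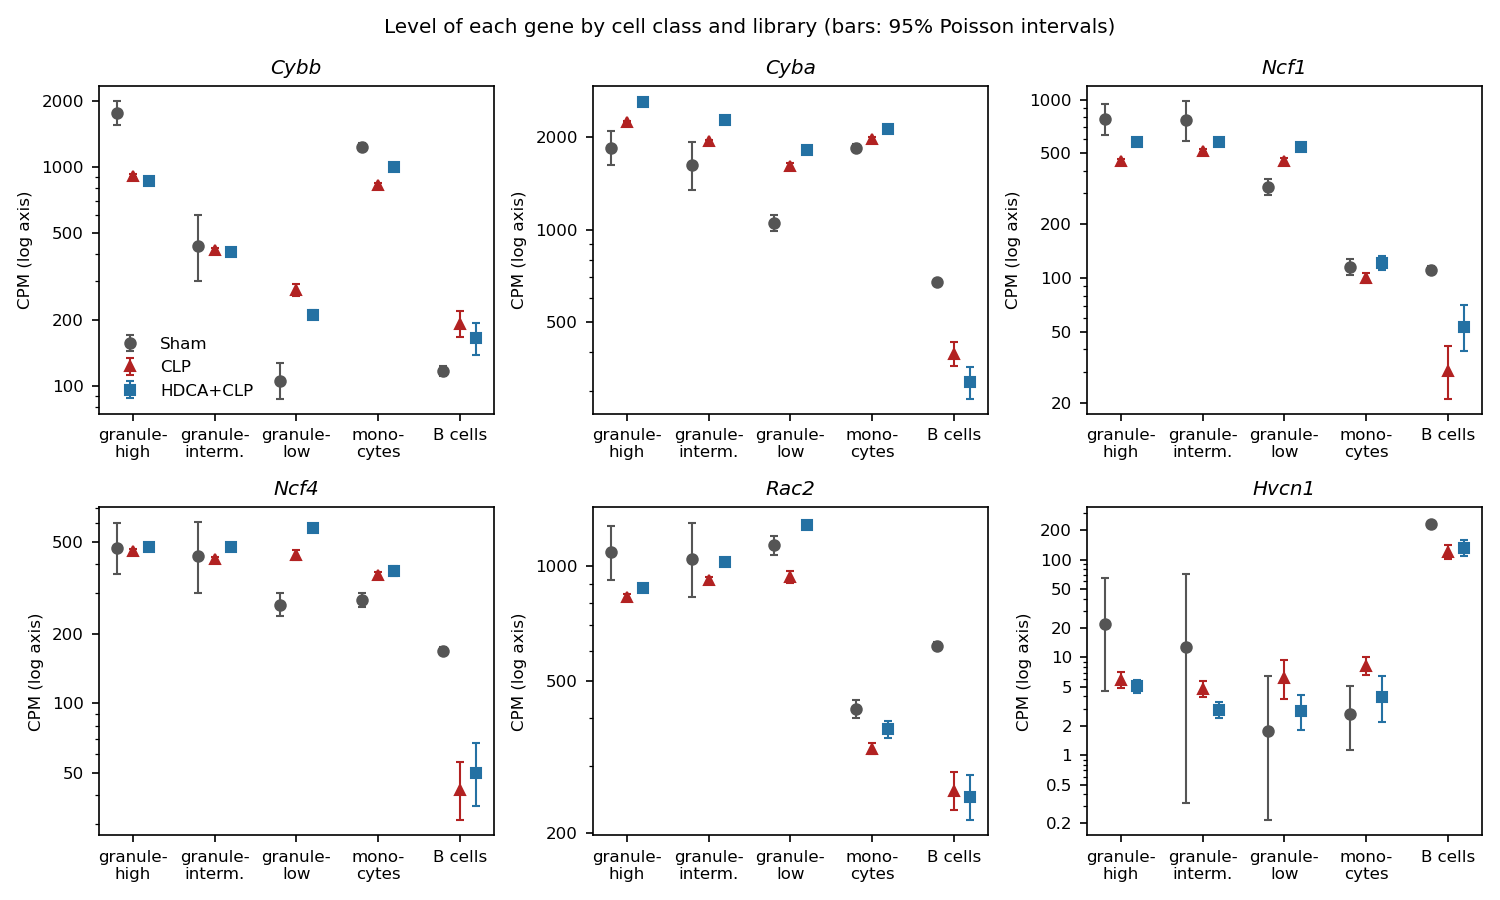
Level of each of the 6 transcripts (CPM, log axis) in granule-high, granule-intermediate and granule-low neutrophils, monocytes and B cells; each point is 1 library (grey circle Sham, red triangle CLP, blue square HDCA+CLP) and its bar is the exact 95% Poisson interval. Cybb spans from 1762 CPM in Sham granule-high neutrophils to 105 CPM in Sham granule-low ones. Cyba lies between 1052 and 2602 CPM in the neutrophil tiers and monocytes, and between 319 and 678 CPM in B cells.

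Cyba encodes p22phox, the small partner that keeps gp91phox stable in the membrane. Among the neutrophil tiers and monocytes it was more evenly spread than Cybb, and it was lower in B cells. Granule-high neutrophils held 1842, 2234 and 2602 CPM in Sham, CLP and HDCA+CLP. Granule-low neutrophils held 1052, 1605 and 1810 CPM, monocytes 1848, 1972 and 2126 CPM, and B cells 678, 395 and 319 CPM. Without S100 and granule UMIs in the total, granule-high neutrophils held 3486, 4160 and 4735 CPM against 1851, 1988 and 2148 CPM in monocytes. T cells still held 318, 421 and 411 CPM, so Cyba was present in a lymphocyte class almost free of Cybb. The balance of the pair therefore depended on the class: Cybb made up 48.9, 29.0 and 24.9% of the Cybb and Cyba UMIs in granule-high neutrophils and 9.1, 14.6 and 10.4% in granule-low ones. In monocytes that share was 40.1, 29.4 and 31.9%, and in B cells 14.7, 32.7 and 34.0%. These shares do not depend on how libraries are scaled.

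Ncf1 encodes p47phox, the organiser that is phosphorylated and carries the cytosolic proteins to the membrane, and neutrophils held most of it per UMI. Its level over all neutrophils was 397, 486 and 574 CPM in the order Sham, CLP, HDCA+CLP. Monocytes held 116, 100 and 122 CPM, lower by a factor of 3.43, 4.84 and 4.69. Ncf4 encodes p40phox, which binds a phosphoinositide of the phagosome membrane, and it was less lopsided, with 297, 436 and 485 CPM in neutrophils and 279, 357 and 372 CPM in monocytes. The Sham values of Ncf4 in neutrophils and monocytes did not differ beyond counting error (log2 ratio of monocytes to neutrophils -0.09, interval -0.27 to 0.08), although the ratio was -0.53 once S100 and granule UMIs were taken out of the total. Ncf1 was 57.2, 52.7 and 54.2% of the pair's UMIs in neutrophils and 29.3, 22.0 and 24.8% in monocytes. B cells held 111, 30.3 and 53.2 CPM of Ncf1 and 168, 42.0 and 49.7 CPM of Ncf4. T cells held 5.55, 11.9 and 26.5 CPM of Ncf1. If S100a8 in monocytes came only from free neutrophil RNA, Ncf1 arriving with it would be 3.43, 16.8 and 21.8% of what monocytes held.

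Rac2 encodes the Rac GTPase found mainly in blood cells, and it was high in neutrophils of every tier. Its level over all neutrophils was 1122, 887 and 993 CPM in Sham, CLP and HDCA+CLP. Monocytes held 423, 333 and 374 CPM, B cells 619, 258 and 249 CPM and T cells 695, 446 and 415 CPM. Rac2 in monocytes was below neutrophils by the same log2 ratio, -1.41, in each library (-1.84, -2.16 and -2.12 without S100 and granule UMIs). Its close relative Rac1, which most cell types make, held 330, 266 and 310 CPM in neutrophils and 476, 462 and 492 CPM in monocytes, log2 ratios of 0.53, 0.80 and 0.66. Those ratios became 0.09, 0.05 and -0.05 without S100 and granule UMIs, so the direction of Rac1 depends on the scaling. Rac2 was 77.3, 76.9 and 76.2% of the Rac1 and Rac2 UMIs in neutrophils and 47.1, 41.9 and 43.2% in monocytes.

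Hvcn1 encodes the proton channel Hv1, and its level was highest in B cells. They held 233, 120 and 132 CPM in Sham, CLP and HDCA+CLP. T cells held 30.0, 12.6 and 14.0 CPM, while neutrophils held 4.50, 5.33 and 3.78 CPM from 6, 257 and 303 UMIs and monocytes 2.61, 8.18 and 3.90 CPM from 8, 93 and 15 UMIs. After each cell was thinned to 1000 UMIs, 0.408, 0.401 and 0.334% of neutrophils had an Hvcn1 UMI against 3.01, 1.24 and 1.56% of T cells (unthinned, 2.43, 4.44 and 3.02% against 18.1, 6.34 and 5.75%, at median depths of 4294, 8768 and 8145 against 6705, 4859 and 4136 UMIs). The neutrophil share was below that of T cells in each library, and no expression in neutrophils is read from it. T cells themselves held some Hvcn1, so they set no floor for free RNA of this gene; B cell markers summed to 90.7, 13.2 and 5.57 CPM in neutrophils against 12330, 6089 and 6998 CPM in B cells. Whether the neutrophil UMIs come from free RNA was not tested. In B cells the thinned share was 20.5, 10.7 and 12.5%.

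Within neutrophils, Cybb followed the granule genes more steeply than the other members did. Its granule-high level was 16.7, 3.33 and 4.10 times the granule-low level in Sham, CLP and HDCA+CLP (log2 ratio 4.06, interval 3.74 to 4.39; 1.73, 1.64 to 1.83; 2.03, 1.97 to 2.10). The Sham value rests on 11 granule-high cells, which nonetheless held 240 of the 392 Cybb UMIs of Sham neutrophils. Cyba was higher in the granule-high tier by 0.81, 0.48 and 0.52 log2 units. Ncf1 was higher by 1.26 in Sham but differed by 0.01 and 0.09 in CLP and HDCA+CLP, and Ncf4 gave 0.82, 0.05 and -0.27. Rac2 gave -0.06, -0.17 and -0.55, and Rac1 gave -0.86, -0.92 and -0.95. With S100 and granule UMIs taken out of the total, the Cybb ratios became 4.61, 2.26 and 2.49, those of Cyba 1.35, 1.00 and 0.98, and those of Ncf4 and Rac2 changed sign in places: Ncf4 was 0.19 in HDCA+CLP, and Rac2 was 0.49 in Sham and 0.35 in CLP. The Rac1 ratio stayed negative at -0.31, -0.40 and -0.50. Genes with at least 50 UMIs over both tiers were 1.5-fold or more higher in the granule-high tier in 10.5, 6.58 and 9.58% of cases in Sham, CLP and HDCA+CLP. On CPM over all genes, past that fold stood Cybb, Cyba, Ncf1 and Ncf4 in Sham, Cybb alone in CLP, and Cybb and Hvcn1 (165 against 25 UMIs, in both tiers below the T cell level) in HDCA+CLP.

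Finer steps of granule content show where Cybb is higher. In CLP its level was 301, 242 and 257 CPM in cells with 0 to 0.5%, 0.5 to 1% and 1 to 2% granule UMIs, then 455 CPM at 2 to 5%, 903 CPM at 5 to 10% and 1284 CPM at 10 to 20%. In HDCA+CLP the same steps held 198, 230, 240, 444, 853 and 1403 CPM. Under 2% the level was lower after the first step in CLP and slightly higher in HDCA+CLP, and from 2% it climbed in both libraries. Without S100 and granule UMIs in the total, the steps under 2% held 370, 335 and 377 CPM in CLP. In HDCA+CLP they held 258, 316 and 355 CPM. Rac1 went the opposite way, from 483 to 196 CPM in CLP and from 545 to 180 CPM in HDCA+CLP between the first step and the last. The last step holds 37 and 59 cells. Cybb was also uneven among granule-low cells: in Sham, 23 of 228 cells held 88.1% of the tier's Cybb UMIs, in CLP 55 of 549 held 68.2% and in HDCA+CLP 163 of 1632 held 61.3%. The corresponding share for Cyba was 31.2, 35.3 and 27.2%. Summed monocyte markers in that tier were 547, 1551 and 1228 CPM, with 6, 7 and 8 of the 8 markers detected and Ace at 0 in Sham and CLP, and their part in the uneven Cybb was not tested.

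**Figure D2:**
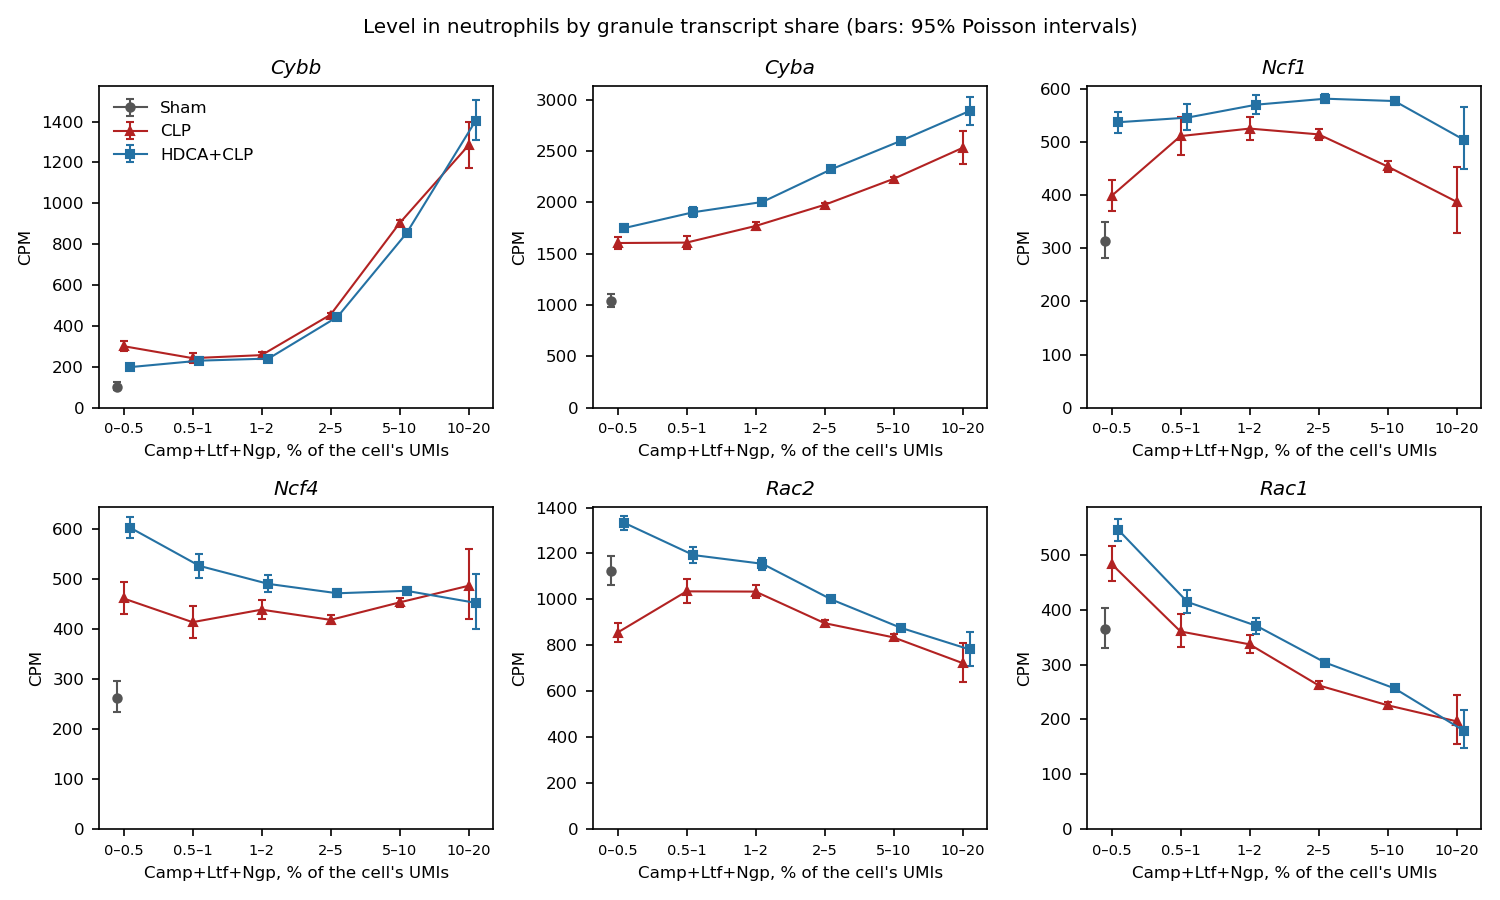
Level of Cybb, Cyba, Ncf1, Ncf4, Rac2 and Rac1 (CPM, linear axes from 0) in neutrophils grouped by the percent of their UMIs from Camp, Ltf and Ngp, with exact 95% Poisson intervals; Sham has enough cells for the lowest step only. From the 1 to 2% step to the last, Cybb goes from 257 to 1284 CPM (CLP, red triangles) and from 240 to 1403 CPM (HDCA+CLP, blue squares), while Rac1 is lowest in the last step.

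The cells that held each transcript differed between libraries, as did the cell mix. Of all Cybb UMIs, monocytes held 59.3% in Sham, B cells 23.2% and neutrophils 6.14%, whereas neutrophils held 72.7% of the CLP and 91.3% of the HDCA+CLP total. B cells held the largest class share of Ncf1 in Sham, 53.8%, and of Ncf4, 49.8%; neutrophils held 93.3 and 97.9% of Ncf1 and 79.1 and 94.8% of Ncf4 in CLP and HDCA+CLP. Neutrophils held 6.11, 71.6 and 92.7% of Cyba. For Rac2 the leading class in Sham was T cells with 51.7%, and neutrophils held 72.3 and 92.3% in CLP and HDCA+CLP. Hvcn1 went from 76.2% in B cells in Sham to 15.7 and 18.0%, and neutrophils held 28.2 and 47.8% of its few remaining UMIs. The comparisons below are made within classes.

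**Figure D3:**
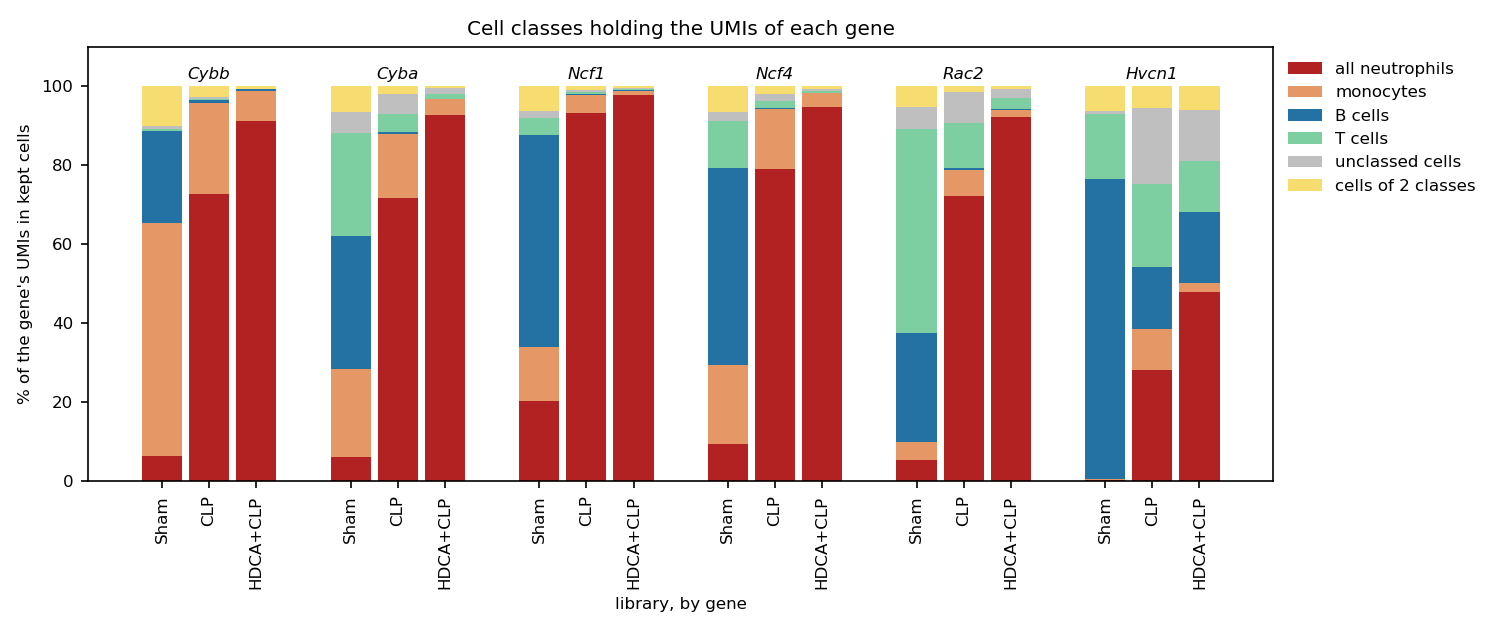
Percent of each transcript's UMIs held by each cell class in each library, as stacked bars that add to 100; yellow marks cells that met the rules of 2 classes. For Cybb the red (neutrophil) part goes from 6.14% in Sham to 72.7 and 91.3% in the other libraries.

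Seen per cell, the 4 oxidase subunits Cybb, Cyba, Ncf1 and Ncf4 were found together in a higher share of CLP and HDCA+CLP neutrophils than of Sham ones. After thinning to 1000 UMIs, all 4 were seen in 0.816% of 245 Sham neutrophils (interval 0.099 to 2.92), 4.75% of 5242 CLP neutrophils (4.19 to 5.36) and 5.17% of 9289 HDCA+CLP neutrophils (4.73 to 5.64). None was seen in 21.2, 4.14 and 2.69%. Without thinning, all 4 were seen in 17.0, 76.2 and 74.6% of neutrophils, whose median depth was 4294, 8768 and 8145 UMIs. The granule-low tier alone, thinned, gave 0.442% (interval 0.0112 to 2.44, 1 cell of 226), 2.26% (1.17 to 3.91) and 1.86% (1.26 to 2.64) with all 4, and these intervals overlap. In thinned monocytes the figure was 2.05, 1.09 and 1.05%, and in T cells it was 0 of 3028, 0 of 2739 and 0 of 1217, which allows shares of up to 0.0991, 0.11 and 0.247% (3 cells of each total). For single members, the thinned share of neutrophils with a UMI was 8.57, 37.0 and 35.0% for Cybb, 30.6, 40.2 and 43.3% for Ncf1 and 20, 33.7 and 38.3% for Ncf4, against 0.132, 0.986 and 0.657%, 0.594, 1.31 and 2.96%, and 2.05, 2.74 and 3.04% of T cells.

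The CLP and Sham libraries were then compared class by class, to ask how the oxidase transcripts stood after the procedure. In neutrophils as a whole, the membrane core was higher in CLP: Cybb was 294 CPM in Sham but 607 CPM in CLP (log2 ratio 1.05, interval 0.90 to 1.19), and Cyba was 1166 and 2033 CPM (0.80, 0.73 to 0.88). Ncf4 stood at 0.55 (0.41 to 0.70) and Ncf1 at 0.29 (0.17 to 0.42), both within 1.5-fold, and Rac2 at -0.34 (-0.41 to -0.26). So 2 of 6 members were past 1.5-fold and none lower, where 54.6% of 9310 genes were past it, 22.2% higher and 32.4% lower; the members' share is no larger than that background. The median of the 6 was 0.42 and that of all genes -0.18. Granule-low cells were 92.3% of Sham neutrophils and 10.4% of CLP neutrophils, so the whole-class value also compares tiers. Size factors, an alternative scaling, added 0.48 to every neutrophil ratio: Rac2 turned to 0.14, Ncf1 (0.77) and Ncf4 (1.03) passed 1.5-fold, and 38.1% of all genes were higher and 17.4% lower. A mean over cells gave 1.81 for Cybb.

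Within granule-low neutrophils, the 1 tier with enough cells in both libraries, the core and p40phox were again higher in CLP. Granule content still differed inside that tier: 223 of 228 Sham cells had under 0.5% granule UMIs, against 288 of 549 CLP cells. Cybb was 105 CPM in Sham against 274 CPM in CLP (log2 ratio 1.38, interval 1.10 to 1.67), Ncf4 267 and 439 CPM (0.72, 0.54 to 0.90) and Cyba 1052 and 1605 CPM (0.61, 0.52 to 0.70). Ncf1 was 325 and 450 CPM (0.47, 0.30 to 0.64), and Rac2 1132 and 938 CPM (-0.27, -0.37 to -0.18). Hvcn1 had 2 and 21 UMIs (1.78, -0.25 to 4.92), too few to be called. Thus 3 of the 5 members with at least 50 UMIs were past 1.5-fold, all higher, where 51.3% of 5662 genes were past it and 30.1% higher. Over the same tier, summed early myeloid markers were 7.14 CPM in Sham and 146 in CLP, natural killer cell markers 70.5 and 651, and erythroid markers 4.46 and 882. The Cybb ratio was 1.09 in cells without any UMI of the markers that define monocytes, B cells or T cells, 1.24 in cells without early myeloid UMIs and 1.32 in cells without natural killer, T cell, platelet or erythroid markers. Cyba was inside 1.5-fold in the first of these (0.54) and in a mean over cells (0.52). Size factors added 0.27, with which Ncf1 was past 1.5-fold (0.74) and 40% of all genes were higher.

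Monocytes went the other way for Cybb. It was 1237 CPM in Sham and 823 CPM in CLP (log2 ratio -0.59, interval -0.64 to -0.53), just past 1.5-fold, and 5 of 11 alternatives kept it past. Cyba was close between the libraries (1848 and 1972 CPM, 0.09), Ncf4 was 0.35, Ncf1 -0.20 and Rac2 -0.35. Of 9072 genes, 47.8% were past 1.5-fold; of the members, Cybb and Hvcn1 were. Size factors added 0.24 and moved Cybb to -0.35. The class itself was of different make-up: cells with more Ccr2 and Ly6c2 than Cx3cr1 and Ace UMIs, the pattern of classical monocytes, were 60.8% of Sham and 91.4% of CLP monocytes. In those cells Cybb was 1145 and 806 CPM (-0.51, -0.57 to -0.44), inside 1.5-fold, and in the 107 Sham and 29 CLP cells with more Cx3cr1 and Ace it was 1484 and 1747 CPM (0.23, 0.05 to 0.41). Early myeloid markers summed to 40.2 CPM in Sham monocytes and 449 in CLP, and without cells that held any such UMI the Cybb ratio was -0.46. Neutrophil markers went from 1658 to 8117 CPM, dendritic cell markers from 71.5 to 5.10 CPM and B cell markers from 113 to 21.1 CPM in the class, and their part in the Cybb ratio was not tested. Hvcn1 had 8 and 93 UMIs (1.65, 0.61 to 2.90), both below the T cell level, and the ratio turned to -0.73 when cells that also met another class's rule were kept.

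B cells showed the widest split. Cybb was higher in CLP, at 192 CPM against 117 CPM (log2 ratio 0.71, interval 0.50 to 0.91), while the other 5 members were lower. Ncf4 was 168 and 42.0 CPM (-2.00, -2.43 to -1.59), Ncf1 111 and 30.3 CPM (-1.88, -2.40 to -1.40) and Rac2 619 and 258 CPM (-1.26, -1.43 to -1.10). Hvcn1 was 233 and 120 CPM (-0.95, -1.20 to -0.71) and Cyba 678 and 395 CPM (-0.78, -0.92 to -0.65), whereas Rac1 was 150 and 137 CPM (-0.13). All 6 members were past 1.5-fold, where 38.7% of 8934 genes were, 12.5% higher and 26.2% lower; their median was -1.11 and that of all genes -0.14. The CLP values rest on 281 cells with 36 Ncf1 and 50 Ncf4 UMIs. In these cells summed neutrophil markers were 158 CPM in Sham and 4428 in CLP, natural killer cell markers 93.3 and 784, B cell markers 12330 and 6089, and monocyte markers 24.1 and 100 with Csf1r, F13a1 and Ace at 0 in CLP; their part in the split was not tested. Free neutrophil RNA in proportion to S100a8 would give 17.5% of the Ncf1 and 3.46% of the Cybb measured in CLP B cells. With a 5% limit on mitochondrial UMIs the Cybb ratio was 0.43, inside 1.5-fold, and that of Ncf1 -2.87. With cells of a second class kept, Cyba turned to 0.16, Ncf1 was -0.36 and Ncf4 -0.42.

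**Figure D4:**
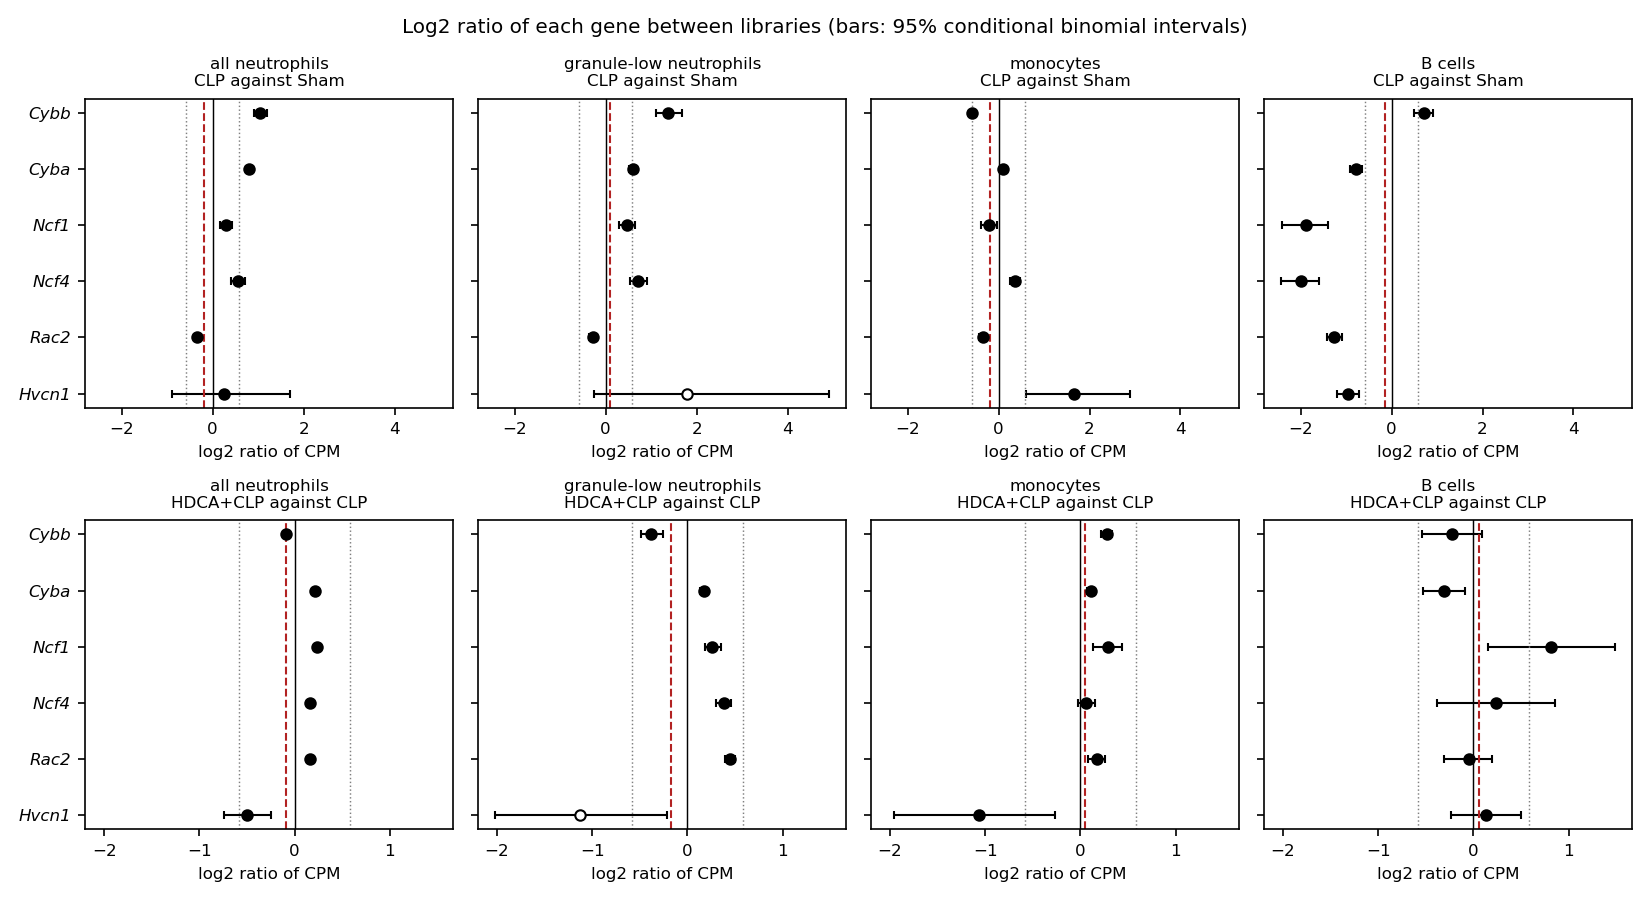
Log2 ratio of each transcript, CLP to Sham and HDCA+CLP to CLP, by cell class, with exact 95% intervals for counting error; open points have under 50 UMIs over both libraries, the dashed red line is the median of all genes in that class and dotted lines mark 1.5-fold. In CLP to Sham, Cybb is at 1.05 in neutrophils, -0.59 in monocytes and 0.71 in B cells, and in HDCA+CLP to CLP most filled points lie between the dotted lines.

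The HDCA+CLP library was then set against CLP, which differ in HDCA and CMC by label. In neutrophils the members were close: Cybb was 607 CPM without HDCA and 572 CPM with it (log2 ratio -0.09, interval -0.11 to -0.07), Cyba 2033 and 2353 CPM (0.21) and Ncf1 486 and 574 CPM (0.24). Ncf4 and Rac2 each gave 0.16, and Hvcn1 -0.50. None of the 6 was past 1.5-fold, and 10.9% of 10497 genes were; the median of the 6 was 0.16 and that of all genes -0.09. In the granule-high tier, Ncf1 had the widest gap of the 5 oxidase subunits, 453 against 576 CPM (0.35, 0.31 to 0.38), with 7.37% of genes past 1.5-fold and no member among them. In the intermediate tier 9.05% of genes were past it, and of the members Hvcn1 alone (121 and 113 UMIs, -0.71).

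The granule-low tier differed more between the CLP and HDCA+CLP libraries, with 26% of 7367 genes past 1.5-fold but no member with at least 50 UMIs. There Cybb was 274 and 211 CPM, respectively (-0.38, -0.49 to -0.26), whereas Rac2 was 938 and 1277 CPM (0.45, 0.39 to 0.50) and Ncf4 439 and 572 CPM (0.38, 0.30 to 0.46). The Cybb ratio moved to -0.06 in cells free of UMIs of the other classes' markers, and Rac2 passed 1.5-fold under size factors (0.59). In this tier erythroid markers summed to 882 CPM in CLP and 1869 CPM with HDCA, natural killer cell markers to 651 and 320 CPM, early myeloid markers to 146 and 54.5 CPM and T cell markers to 123 and 46.6 CPM. Cells with T, natural killer, platelet or erythroid markers left out, the Cybb ratio was -0.51. In monocytes Cybb was 823 and 997 CPM (0.28, 0.22 to 0.33) and Hvcn1 went from 93 to 15 UMIs (-1.07, -1.96 to -0.27), the 1 member past 1.5-fold where 8.68% of genes were. In B cells Ncf1 was past it (36 and 46 UMIs, 0.81, 0.15 to 1.49), where 17.7% of genes were, and summed neutrophil markers were 4428 CPM in CLP and 7142 in HDCA+CLP. Erythroid markers in these B cells went from 2.52 to 1029 CPM and natural killer cell markers from 784 to 4.63 CPM; the part of these markers was not tested. After thinning, 3.57% of CLP and 3.30% of HDCA+CLP B cells had an Ncf1 UMI, against 1.31 and 2.96% of T cells.

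HDCA+CLP and Sham share libraries with both comparisons above, so their values are only set beside them. In neutrophils the log2 ratios to Sham were 0.96 for Cybb, 1.01 for Cyba, 0.53 for Ncf1, 0.71 for Ncf4 and -0.18 for Rac2, with 3 members past 1.5-fold and 55.4% of all genes. In the granule-low tier Cybb was 1.00, Cyba 0.78, Ncf1 0.74, Ncf4 1.10 and Rac2 0.17, with 4 members past 1.5-fold and 47.2% of all genes. In monocytes no member was past it, where 42.7% of genes were, and Cybb was -0.31. In B cells 5 members were lower past 1.5-fold, where 34.6% of genes were past it in either direction, and Cybb was 0.49.

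The counts for related genes in CLP against Sham are set beside the share of all genes past 1.5-fold: 22.2% higher and 32.4% lower in all neutrophils, 30.1 and 21.2% in granule-low cells, 18 and 29.8% in monocytes, and 12.5 and 26.2% in B cells. Size factors add 0.48, 0.27, 0.24 and -0.07 to every ratio in these classes. With them 17.4, 13.8, 20.2 and 29.2% of all genes were lower, and the lists were not counted again. Counts over all neutrophils also compare tiers, as the members' values do. The genes of oxidase activation and assembly, among them restraining ones such as Arhgdib, included more lower than higher in CLP against Sham, in each class. Of 24 activation and assembly genes, 15 were 1.5-fold or more lower in CLP neutrophils, where 32.4% of all genes were, and 0 higher (median -0.89, all genes -0.18). The PI3-kinase subunits Pik3cd (188 to 43.5 CPM, -2.11) and Pik3cg (-1.83) led those lower, and Arhgdib, which holds Rac proteins in the cytosol, was 0.42. In granule-low cells the counts were 9 lower, where 21.2% of all genes were, and 1 higher of 22 (median -0.45, all genes 0.09), with Pik3cd at -1.63 and the Rac exchange factor Prex1 at -1.46. In monocytes they were 12 lower, where 29.8% of all genes were, and 0 higher of 23 (median -0.59, all genes -0.18), with Dock2, another Rac activator, at -1.50 and the p47phox kinase gene Prkcd at -1.44 (268 to 99.0 CPM). In B cells 9 of 22 were lower, where 26.2% of all genes were, and 2 higher, with Prkcb at -1.60 and Arhgdib at -1.30. Between HDCA+CLP and CLP neutrophils, Prkca (62 and 44 UMIs, -1.23) was the 1 gene of the 24 past 1.5-fold, where 10.9% of all genes were. In monocytes 0 of 23 were past it in that comparison, where 8.68% of all genes were. In B cells BC017643 (Cybc1), whose product helps gp91phox reach the membrane, was 0.72 between the same libraries. It was the 1 gene of 17 past 1.5-fold, where 17.7% of all genes were.

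Among receptors that prime or trigger the burst, 7 of 11 were higher in CLP monocytes, where 18% of all genes were, and 1 lower (median 0.89, all genes -0.18), led by the formyl peptide receptors Fpr2 (57.5 to 526 CPM, 3.20) and Fpr1 (2.90), while the tumour necrosis factor receptor Tnfrsf1a was -0.72. In granule-low neutrophils 3 were higher, where 30.1% of all genes were, and 1 lower of 11 (median -0.03), with Fpr2 at 1.53 and the Fc receptor Fcgr4 at 1.52. Over all neutrophils 2 were higher and 3 lower, where 22.2 and 32.4% of all genes were, with Fpr2 at 0.92, the leukotriene receptor Ltb4r1 at 0.64 and Tnfrsf1a at -1.02. Between HDCA+CLP and CLP, 0 of 11 receptors were past 1.5-fold in neutrophils or monocytes, where 10.9 and 8.68% of all genes were. Fpr1 was 0.38 and 0.54 there. None of 9 genes for other NADPH oxidases and their partners reached 50 UMIs in any class or comparison, and no ratio is given for them.

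NADPH for the reaction comes largely from the pentose phosphate pathway. In neutrophils 6 of 12 supply genes were lower in CLP and 2 higher, where 32.4 and 22.2% of all genes were (median -0.67, all genes -0.18). Within that pathway 2 neighbouring enzymes differed: transketolase, Tkt, was higher (319 to 523 CPM, 0.71) and transaldolase, Taldo1, lower (1418 to 379 CPM, -1.90). Taldo1 was also lower in granule-low cells (-1.40), monocytes (-1.15) and B cells (-0.72). Tkt had an interval above 0 in B cells but not in granule-low cells or monocytes. In granule-low cells 3 of 9 supply genes were lower and 1 higher, where 21.2 and 30.1% of all genes were. In monocytes 4 of 12 were lower and 0 higher, where 29.8 and 18% of all genes were. Between HDCA+CLP and CLP neutrophils, Idh1, which makes NADPH from isocitrate, was the 1 supply gene of 12 past 1.5-fold (10.7 to 17.2 CPM, 0.68). Of all genes, 10.9% were past it in that comparison.

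Genes that remove superoxide and peroxide included Sod2, with a wide difference in each myeloid class. Sod2, the mitochondrial superoxide dismutase, went from 20.2 to 229 CPM in neutrophils (3.50), from 18.8 to 900 CPM in granule-low cells (5.58) and from 105 to 2366 CPM in monocytes (4.50). Over all neutrophils 5 of 20 such genes were higher in CLP and 5 lower, where 22.2 and 32.4% of all genes were. Their median was -0.11 and that of all genes -0.18. In granule-low cells 8 of 16 were higher in CLP, where 30.1% of all genes were, and 0 lower (median 0.67, all genes 0.09). The peroxiredoxin Prdx5 was 1.55 in that tier. In monocytes 10 of 20 were higher and 4 lower, where 18 and 29.8% of all genes were, with haem oxygenase Hmox1 at 2.76 and catalase, Cat, at -1.84. In B cells 6 of 16 were higher and 2 lower, where 12.5 and 26.2% of all genes were, with the peroxiredoxin Prdx4 at 1.61 and thioredoxin, Txn1, at 1.54. Slc7a11, which imports cystine for glutathione, was lower in CLP neutrophils than in Sham (457 to 98.3 CPM, -2.22). Granule-low cells were 92.3% of Sham and 10.4% of CLP neutrophils, so that value also compares tiers. Within granule-low cells 0 of the 16 tested genes of this list were 1.5-fold or more lower. Slc7a11 was higher in HDCA+CLP than in CLP (98.3 to 210 CPM, 1.09, and in the granule-high tier 29.8 to 118 CPM, 1.99). It was the 1 gene of 20 past 1.5-fold in that comparison of neutrophils, where 10.9% of all genes were. In granule-low cells 7 of 19 were lower and 2 higher in HDCA+CLP than in CLP, where 21.7 and 4.25% of all genes were, among them the peroxiredoxin Prdx1 (-1.22) and glutathione peroxidase Gpx1 (0.62). Monocyte Hmox1 was lower in HDCA+CLP than in CLP (643 to 317 CPM, -1.02).

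The genes with the most similar pattern over the 15 class and library values, among 4377 searched, are given by Pearson correlation as a description. Among the nearest to Cyba were S100a13 (0.975) and Milr1 (0.958), and among those to Ncf4 Ostf1 (0.938) and Cotl1 (0.936). Among the nearest to Ncf1 were Rab6a (0.966) and Cyb5r4 (0.960), and Rac2 was nearest to Tsc22d4 (0.971), Gpsm3 (0.958) and Ppp1r18 (0.951). Hvcn1 lay near the B cell genes Bank1 (0.980) and Ly6d (0.977). Cybb had the weakest best match, Nucb2 (0.868), then Ywhab (0.844) and Tmem165 (0.841). Between members the highest value was 0.947 for Cyba and Ncf4, then 0.938 for Ncf1 and Rac2, and Cybb with Rac2 gave 0.005. The 15 points share 3 libraries and 5 classes.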

How the data were processed

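Single-cell 3′ UMI count matrices were deposited by the authors as raw counts per gene and cell barcode, 1 matrix per library, made with Cell Ranger 5.0.1 per the file headers and the submitters' processing notes, which also name mm39, R 4.0.3 and Seurat 4.0.6. Per the labels' protocols, hyaluronidase and DNase I were used to dissociate the sample. Cells with at least 500 UMIs, 200 genes and at most 10% mitochondrial UMIs were kept, which left out 261, 542 and 166 Sham, CLP and HDCA+CLP barcodes for mitochondrial UMIs. Neutrophils followed the S100a8 and S100a9 rule given in the report; monocytes had 3 or more UMIs of Csf1r, Ms4a6c and F13a1, B cells of Cd79a, Cd79b and Ms4a1, and T cells of Cd3d, Cd3e and Cd3g. The 213, 113 and 58 cells that met the rules of 2 classes were left out, which was the treatment of doublets; 381, 1664 and 843 cells met none.

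Counts were summed per class and library and scaled to CPM over all genes, not by length, since each UMI is a 3′ end. Levels carry exact Poisson intervals, ratios exact conditional binomial intervals and shares exact Clopper-Pearson intervals, all 95%; a share of 0 carries the limit that 3 counts allow. A ratio past 1.5-fold with at least 50 UMIs over both libraries is called. Free RNA was gauged by scaling neutrophil levels to S100a8. Genes were named from the 2 highest and 2 lowest ratios of each related list, ranked by the interval bound nearest 0; similar genes are the 3 highest correlations of log2(CPM + 10), among genes reaching 50 CPM, some of which are not reported here. Members, lists and rules were chosen with earlier results of these data known, and motifs after the sequences were seen. Alternatives were another scaling, CPM without S100 and granule genes, means over cells, 5% mitochondrial UMIs, 1000 UMIs, cells of 2 classes kept, a 10% S100 limit, 5 marker UMIs, a fold of 2, a minimum of 20 UMIs, thinning to 2000 UMIs, and cells with markers of other types left out; limits on early myeloid and other-class UMIs and the monocyte split were chosen after seeing the data. The calculations were tested on simulated data. Python 3.11.15, NumPy 2.4.6, SciPy 1.17.1, pandas 2.3.3 and matplotlib 3.10.9 were used. Promoters came from a RefSeq table of another build, GRCm38.p6, matched by symbol for 3 of 6 members.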

Additional observations from a re-analysis of the deposited data

Results flagged for a closer look

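For 3 members the CLP to Sham ratio was past 1.5-fold on opposite sides of 0 in different cell classes. How many of all genes do the same was not counted, so this is not read as particular to the members. Of all genes, 54.6% were past 1.5-fold in all neutrophils, 47.8% in monocytes and 38.7% in B cells. The differences between classes were not tested, since each group is 1 library. The log2 ratio of Cybb was 1.05 in all neutrophils, -0.59 in monocytes and 0.71 in B cells. That of Cyba was 0.80 in all neutrophils and -0.78 in B cells. That of Hvcn1 was 1.65 in monocytes, from 8 and 93 UMIs at levels below that of T cells, and -0.95 in B cells. When cells of 2 classes were kept, Cyba in B cells became 0.16 and Hvcn1 in monocytes -0.73, so for these 2 members the opposite sides do not hold under that choice. The Cybb ratio in monocytes stayed past 1.5-fold in 5 of 11 alternatives, and was -0.35 with size factors. Within that class it was -0.51 in cells with more Ccr2 and Ly6c2 and 0.23 in those with more Cx3cr1 and Ace. In B cells it was 0.43 with a 5% limit on mitochondrial UMIs.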

How the results depend on the processing

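Over 660 recalculations of single members' ratios, 560 stayed inside the counting interval of the reported ratio, 98 moved outside it and 2 reversed; 12 changed sign, 3 of them among the 198 recalculations of ratios past 1.5-fold. Both reversals came when cells of 2 classes were kept, in CLP against Sham: Hvcn1 in monocytes became -0.73 and Cyba in B cells 0.16. The same choice moved the median of the 6 members in CLP against Sham to -0.26 in monocytes (from -0.05) and to -0.39 in B cells (from -1.11), and in HDCA+CLP against CLP to 0.36 in B cells (from 0.04). Size factors moved the CLP against Sham median to 0.90 in all neutrophils (from 0.42) and 0.19 in monocytes, and the HDCA+CLP against CLP median in all neutrophils to 0.24 (from 0.16), where CPM without S100 and granule genes gave 0.13. Leaving out cells with early myeloid UMIs moved the monocyte median in CLP against Sham to 0.09. The cause of these moves was not tested. Size factors also added 0.14 to granule-low ratios of HDCA+CLP against CLP. Cybb in CLP against Sham ranged from 0.85 to 1.81 in all neutrophils, 1.09 to 1.64 in granule-low cells and 0.43 to 1.26 in B cells. Low counts limit Hvcn1 in Sham neutrophils (6 UMIs), granule-low cells (2, 21 and 25 in Sham, CLP and HDCA+CLP) and monocytes (8, 93 and 15). They also limit B cells in CLP and HDCA+CLP, where 36 and 46 Ncf1 UMIs carry the value. No paired analysis was possible because each group is 1 library.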
